A study of Homo sapiens with 9 samples.

Results

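The replication-dependent histone genes were taken as all genes whose symbols begin with HIST1H, HIST2H, HIST3H or HIST4H. Of 19918 genes in the count files, 70 met this rule: 6 for the linker histone H1, 17 for H2A, 18 for H2B, 14 for H3 and 15 for H4. All 70 matched a current RefSeq gene. The HIST1 cluster on chromosome 6 held 55 of them, chromosome 1 held 14 (11 HIST2 and 3 HIST3 genes) and chromosome 12 held HIST4H4. Only 23 of the 70 reached 1 CPM (a count scaled to a common library total) in at least 3 of 9 libraries, 27 were high enough to be tested, and 7 were listed at 0 throughout.

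Replication-dependent histones package newly made DNA. A pair each of H2A, H2B, H3 and H4 forms the core of a nucleosome, and H1 binds the linker DNA between cores. Their mRNAs are made mainly in S phase under the coactivator NPAT, and most end in a conserved stem-loop in place of a poly(A) tail. The stem-loop-binding protein SLBP and the U7 small nuclear ribonucleoprotein direct the cut behind it, and the mRNAs are degraded when DNA synthesis stops. Some members, HIST1H1C and HIST1H2BD among them, are also known to give polyadenylated mRNA. Many members are near copies of one another, which limits how far short reads can be assigned to a single gene.

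The cells were VCaP, an established prostate cancer line labelled as epithelial. Every culture received 100 pmol of siRNA by reverse transfection and was collected 72 h later. The groups were si025 and si033, which are separate siRNAs against exon 1 of the lncRNA IGF1R-AS1, and a control siRNA labelled WT, with 3 libraries each made from 1.3 µg of total RNA with a stranded total RNA kit. The purpose of the comparison was to find genes whose expression depends on IGF1R-AS1. That transcript was not analysed here, so the strength of each knockdown is not known from these data. The study calls its replicates biological, but the sources used here do not say how the 3 libraries of a group were grown, so part of the spread behind the *p* values may be technical.

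Library totals ran from 11649811 to 28492259 counts, and replicate 3 was the deepest library in every group. The 70 genes together took 1742 to 10185 counts per library, or 0.0138% to 0.0382% of the total, so the precision of most members was set by counting noise. All 10 luminal prostate markers checked, among them KLK2, reached 1 CPM in at least 3 libraries of this line. Their summed level was 8361 to 8587 CPM in control, 10425 to 10772 CPM with si025 and 7358 to 7666 CPM with si033. By edgeR, 9 of 10 were called higher and 1 lower with si025, against 32.9% and 28.8% of all tested genes. With si033, 3 were called higher and 5 lower, against 26.9% and 27.8% of all tested genes. Basal, endothelial and leukocyte lists summed to at most 5.06 CPM, with KRT5, CDH5, CLDN5 and CD3E at 0, and the basal sum was 3.13 to 5.06 CPM in control and 1.57 to 2.14 CPM with si033. The summed level of the fibroblast list was 16.9 to 19.1 CPM in control, 36.5 to 43.8 CPM with si025 and 8.98 to 11.2 CPM with si033. Most of this fibroblast sum came from LUM, and COL1A2 was at or near 0. The part of these shifts in the histone results was not tested.

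The feature that unites these genes in sequence is the stem-loop, shown here for members that carry its 4 most frequent forms and 2 that occurred once. In hg38, on the strand of each gene, capitals mark the stem-loop (16 bases) and lower case the 5 bases on either side.
HIST1H1C (chr6:26055744-26055759, minus strand): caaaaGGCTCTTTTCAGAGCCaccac
HIST1H2BK (chr6:27146366-27146381, minus strand): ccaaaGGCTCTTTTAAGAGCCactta
HIST1H4H (chr6:26285131-26285146, minus strand): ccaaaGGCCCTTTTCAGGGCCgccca
HIST2H4A (chr1:149833032-149833047, plus strand): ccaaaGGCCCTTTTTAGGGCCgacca
HIST2H2AC (chr1:149887391-149887406, plus strand): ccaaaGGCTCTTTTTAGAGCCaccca
HIST1H2AG (chr6:27133515-27133530, plus strand): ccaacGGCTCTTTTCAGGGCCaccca

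All 70 members held a match to the pattern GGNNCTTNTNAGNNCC within or just behind their exons. There were 10 forms of it, and the form of HIST1H1C was the most frequent, with 40 members. The form of HIST1H2BK and the GC-rich form of HIST1H4H had 10 members each and that of HIST2H4A had 4, whereas those of HIST2H2AC and HIST1H2AG occurred once. Within 100 bases of the 3′ end of the gene model, 66 of 70 members (94.3%) held the pattern, against 2 of 19829 other genes (0.0101%), EAF1 and ZNF154. The remaining 4 members, HIST1H2BD, HIST1H2BK, HIST2H2BE and HIST2H2BF, have models that run on beyond the stem-loop, by 12747, 8073, 1728 and 29196 genomic bases. A longer model collects reads from longer transcripts as well as from those that end at the stem-loop, and these counts cannot tell them apart.

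Promoters are shown next for members whose levels moved in different ways. The 250 bases before the RefSeq start (GRCh38.p14) are given on the strand of the gene, with capitals for CCAAT or TATAAA on either strand. The motifs can overlap, as in TTTATAAA, which holds both orientations of TATAAA.
HIST1H1C (chr6:26056471-26056720, minus strand): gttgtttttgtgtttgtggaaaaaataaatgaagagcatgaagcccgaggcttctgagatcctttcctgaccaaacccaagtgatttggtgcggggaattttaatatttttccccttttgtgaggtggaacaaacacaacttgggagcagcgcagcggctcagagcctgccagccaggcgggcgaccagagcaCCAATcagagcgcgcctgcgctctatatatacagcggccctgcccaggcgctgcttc
HIST1H1E (chr6:26156079-26156328, plus strand): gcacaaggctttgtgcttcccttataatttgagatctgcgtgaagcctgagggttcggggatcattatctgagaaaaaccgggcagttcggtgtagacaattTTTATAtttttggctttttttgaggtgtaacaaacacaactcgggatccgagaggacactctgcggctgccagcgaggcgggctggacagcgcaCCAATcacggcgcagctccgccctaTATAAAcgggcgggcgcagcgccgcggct
HIST1H2BJ (chr6:27132796-27133045, minus strand): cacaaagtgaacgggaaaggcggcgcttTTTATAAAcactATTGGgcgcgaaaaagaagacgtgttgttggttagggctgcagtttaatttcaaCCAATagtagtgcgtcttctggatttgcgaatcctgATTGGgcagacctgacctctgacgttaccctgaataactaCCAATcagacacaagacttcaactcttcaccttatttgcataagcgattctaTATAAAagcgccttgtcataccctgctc

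HIST1H1C was lower with both siRNAs, HIST1H1E lower with si025 and higher with si033, and HIST1H2BJ among the most reduced with both. The last of these windows spans the whole interval between HIST1H2BJ and HIST1H2AG, which are transcribed away from each other. Over windows of 250 bases before to 50 after the start, CCAAT was present in 55 of 65 member promoters (84.6%) and in 35.7% of 27305 promoters in all. TATAAA was present in 43 of 65 (66.2%), against 11.95% of all. These matches describe the letters only.

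How far reads can be placed was measured by cutting the exons of each member into 50-base words and counting the share found once in hg38. The median share was 99.0%, but 12 of 70 members fell under 50% and 6 had no unique word at all. Those 6 are 3 pairs of identical copies, HIST2H4A and HIST2H4B, HIST2H3A and HIST2H3C, and HIST2H2AA3 and HIST2H2AA4. Words of 200 bases left 59 members fully unique and 9 under 50%. Counting alternate haplotype sequences as well lowered the share of 0 members. Read pairs that matched several places were not counted, and a pair is placed if either mate is unique. The 50-base share can therefore understate what could be counted, but it does not allow for pairs lost in exons shared between genes. The read length is not given in the sources used here.

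**Figure D1:**
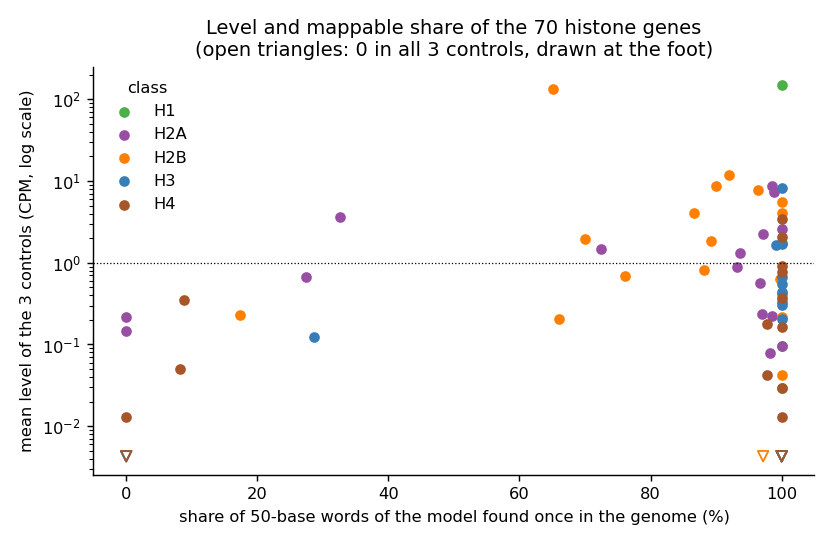
Each point is 1 of the 70 histone genes, with the share of its 50-base words found once in the genome on the x axis (%) and the mean CPM of the 3 control libraries on a log y axis. The 6 genes without a unique word all lie under 1 CPM, yet genes at 100% run from the foot of the plot to HIST1H1C at 149 CPM.

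Of the 7 members at 0 in all 9 libraries, 3 had no unique word (HIST2H4A, HIST2H3A and HIST2H3C). The other 4, HIST1H1B, HIST1H2AA, HIST1H4F and HIST3H3, were fully unique at 200 bases, so that reads from them could have been placed. HIST1H1B encodes a somatic H1, HIST3H3 a testis H3 and HIST1H2AA a testis H2A. A further 13 members had between 1 and 9 counts over all libraries, among them the testis genes HIST1H1T and HIST1H2BA. HIST1H2AI (32.6% unique), HIST1H2BK (65.1%) and HIST2H2AC (72.4%) had the lowest shares of unique 50-base words among the named members. Their levels may therefore be lower limits. With words of 200 bases HIST1H2BK and HIST2H2AC were fully unique, and HIST1H2AI was 50.7% unique. How many reads were lost was not measured. HIST1H3D shares 47.2% of its model with HIST1H2AD on the same strand, and pairs in the shared bases were not counted. The shared bases are 85.3% of the HIST1H2AD model, so its 19 counts over the 9 libraries may also be a lower limit.

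Levels were concentrated in few members. HIST1H1C and HIST1H2BK together held 68.7% to 73.8% of all histone counts in each library. Per kilobase of model, HIST1H1C stood at 203.7 CPM per kb in control and HIST1H2BK at 150.3, followed by HIST1H2BJ at 17.9, HIST1H3H at 17.5, HIST1H2AC at 15.9 and HIST3H2A at 14.96 CPM per kb. At the 1 CPM line, HIST1H3C and HIST1H2BO reached it in exactly 3 libraries, whereas HIST1H4C, HIST1H4E and HIST1H2AK did so in 1. The H4 genes, which encode 1 of the 4 core histones, had 1 member at 1 CPM in all 9 libraries, compared with 6 for H2B, 3 for H2A, 2 for H1 and 1 for H3.

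The summed level of the 70 genes was 376.3, 390.5 and 393.4 CPM in the control libraries. With si025 it was 135.7, 152.6 and 144.9 CPM, and with si033 it was 286.2, 283.0 and 280.2 CPM. The 3 groups did not overlap. The means were 386.7 ± 9.14 CPM in control, 144.4 ± 8.48 CPM for si025 and 283.1 ± 3.01 CPM for si033 (SD, n = 3 libraries each), so that the siRNA means stood at 0.373 and 0.732 of control. In these bulk samples, fewer cells that make histone mRNA and less histone mRNA per cell cannot be told apart. Members that could be placed were at 0 or near it although the kit is labelled as total RNA, and whether the counts hold mainly polyadenylated forms of these mRNAs was not tested.

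Without HIST1H1C and HIST1H2BK the order of the total was the same. The other 68 genes summed to 104.3 ± 1.398 CPM in control, 43.4 ± 1.28 CPM for si025 and 79.7 ± 0.440 CPM for si033. Even the 47 members below the 1 CPM line, 43 of which were not tested, summed to 12.02 ± 0.394, 5.55 ± 0.344 and 8.13 ± 0.408 CPM in the same order. By class, the si025 mean was 0.375 of control for H1, 0.421 for H2A, 0.365 for H2B, 0.318 for H3 and 0.442 for H4. For si033 the respective values were 0.745, 0.830, 0.715, 0.649 and 0.648. The H1 values rest on HIST1H1C, since the other 5 H1 genes summed to 2.29 ± 0.279 CPM in control, 1.46 ± 0.161 CPM for si025 and 2.95 ± 0.302 CPM for si033, which put si033 above control.

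**Figure D2:**
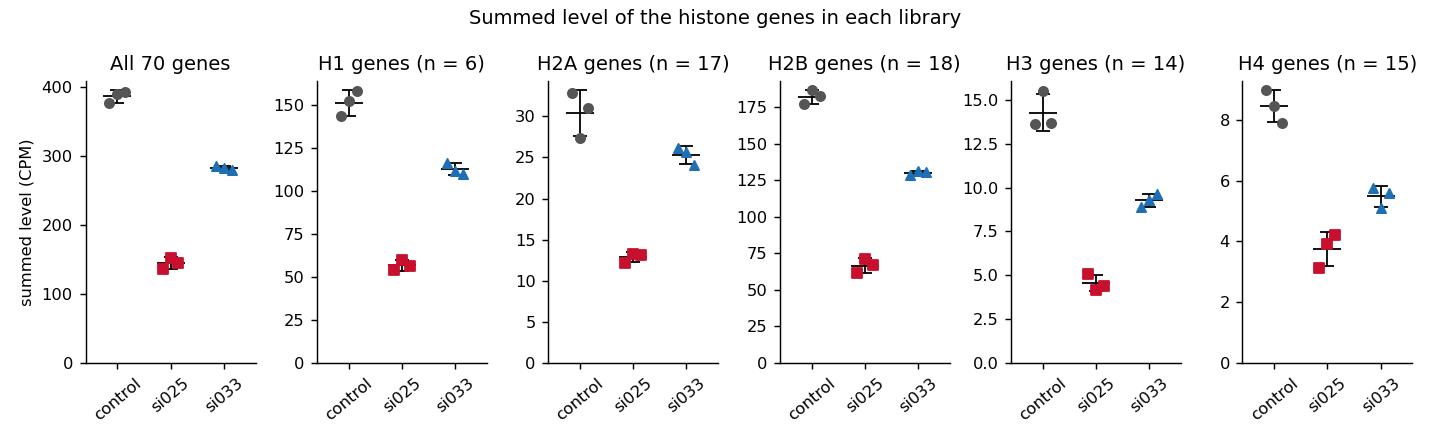
Summed CPM (y axis, starting at 0) of all 70 histone genes and of each class in the 9 libraries, with points for libraries and bars for mean ± SD of 3 libraries. In all 6 panels the si025 libraries lie lowest and the si033 libraries between them and control.

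Genes were tested with the quasi-likelihood test of edgeR over 12810 genes, and a gene with an adjusted *p* under 0.05 is referred to as called. With si025, 0 of the 27 tested members were called higher and 25 lower, where 32.9% of all tested genes were called higher and 28.8% lower. The median log2 fold change of the 27 was -1.33, compared with 0.02 for all genes tested. All 27 estimates were below 0, so 0 were higher at an unadjusted *p* under 0.05 as well, and DESeq2 also called 0 higher. Members pass the filter on low counts through the group in which they are high, so the 13 members at 1 CPM or more in all 9 libraries are the better guide. All 13 were called lower.

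With si033, 1 of the 27 was called higher and 13 lower, against 26.9% and 27.8% of all genes. The median was -0.45, compared with 0.00 for all genes. Of the 13 members at 1 CPM or more throughout, 8 were called lower, 1 higher and 4 in neither direction. Set directly against si033, si025 had 0 members higher and 20 lower, where 31.2% of all genes were higher and 29.7% lower, and again all 27 estimates were below 0 (0 higher at an unadjusted *p* under 0.05, and 0 by DESeq2). Among the 13 members at 1 CPM or more in all 9 libraries, 12 were called lower with si025 than with si033. The comparisons with control share their control libraries and are therefore not independent of each other.

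**Figure D3:**
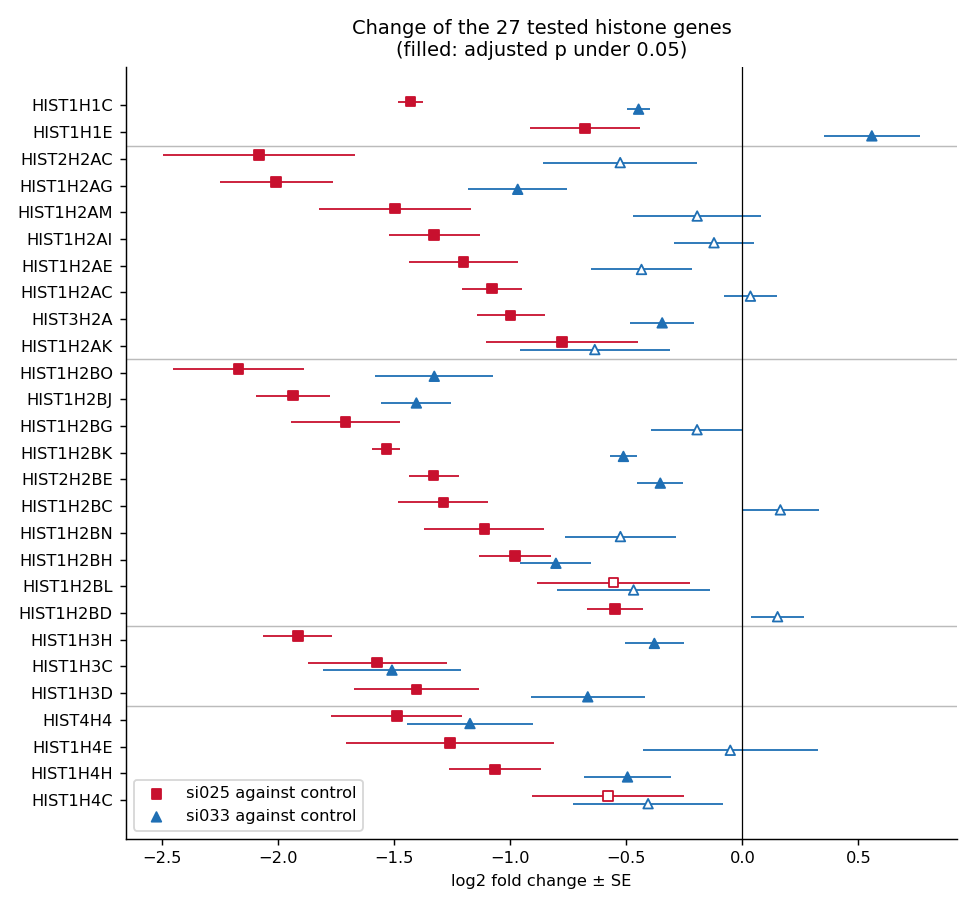
Log2 fold change against control (x axis) ± SE of the 27 tested histone genes, grouped by class from H1 to H4, for si025 (squares) and si033 (triangles), with filled symbols for adjusted *p* under 0.05. All 27 squares lie left of 0, whereas 4 triangles lie to the right of it and 1 of these, HIST1H1E, is filled.

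Among the H1 genes, whose proteins compact nucleosome arrays, HIST1H1C read 141, 149.9 and 156 CPM in control, 52.6, 58.5 and 54.9 CPM with si025, and 113, 109 and 107 CPM with si033. The groups stood clear of each other. Its change on the log2 scale was -1.43 for si025 (SE 0.05, adjusted *p* = 4.84e-16 by edgeR) and -0.45 with si033 (SE 0.05, adjusted *p* = 8.44e-08), and si025 lay below si033 by -0.98 (adjusted *p* = 2.03e-13). HIST1H1E, a second somatic H1, read 1.397, 2.102 and 1.74 CPM in control, 1.01, 1.24 and 1.02 CPM with si025, and 3.13, 2.55 and 2.31 CPM with si033. Its si033 libraries were thus all above control and its si025 libraries all below, on 13 to 67 counts per library.

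HIST1H1E was the 1 member called in opposite directions, with log2 fold changes of -0.68 (SE 0.24, adjusted *p* = 0.0168 by edgeR) and 0.56 (SE 0.21, adjusted *p* = 0.0256). Neither call was firm. The lower level with si025 was not called without si025 replicate 3 (adjusted *p* = 0.0713) or control replicate 2 (0.0776), and the higher level with si033 not without si033 replicate 1 (0.101), control replicate 1 (0.0856) or control replicate 3 (0.0832). DESeq2 called neither (0.0719 and 0.117). The difference between the siRNAs, -1.24 (SE 0.22, adjusted *p* = 4.28e-05), was called in all 16 alternatives. HIST1H1D, the third H1 by level, was too low to test, at 0.419 ± 0.0285 CPM in control, 0.326 ± 0.0842 CPM for si025 and 0.270 ± 0.129 CPM for si033, and the groups overlapped.

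Of the 17 H2A genes, 8 were tested. All 8 were called lower with si025, against 28.8% of all tested genes. With si033, 2 of 8 were, a share near the 27.8% of all tested genes called lower. HIST1H2AC read 8.90, 8.19 and 8.96 CPM in control, 4.59, 4.07 and 3.85 CPM with si025, and 10.3, 8.67 and 8.21 CPM with si033. The si025 libraries lay below all others, while si033 and control overlapped. The fold changes were -1.08 (SE 0.13, adjusted *p* = 1.51e-07 by edgeR) with si025 and 0.03 (SE 0.12, adjusted *p* = 0.820) with si033, where 2 SE on either side gave an interval from -0.20 to 0.27. Without si033 replicate 1 the latter estimate was -0.046 (adjusted *p* = 0.781).

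HIST3H2A on chromosome 1 read 7.94, 6.09 and 8.23 CPM in control, 3.27, 4.32 and 3.54 CPM with si025, and 5.60, 6.11 and 5.94 CPM with si033. The si025 change was -0.999 (adjusted *p* = 3.22e-06 by edgeR). The si033 change of -0.35 (adjusted *p* = 0.0382) rested on single libraries, since the call was lost when si033 replicate 1 (0.0908) or replicate 3 (0.0890) was left out, and likewise control replicate 1 (0.104) or 3 (0.251). HIST1H2AI, with 32.6% of its 50-base words unique, was 3.63 ± 0.660 CPM in control, 1.45 ± 0.180 CPM for si025 and 3.27 ± 0.291 CPM for si033. It changed by -1.33 (adjusted *p* = 3.71e-06) and -0.12 (adjusted *p* = 0.569).

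The lowest estimates in H2A with si025 were those of HIST2H2AC and HIST1H2AG. HIST2H2AC read 1.48, 1.81 and 1.08 CPM in control, 0.0779, 0.546 and 0.265 CPM with si025, and 0.906, 1.55 and 0.690 CPM with si033, with a single count in si025 replicate 1. Its changes were -2.08 (SE 0.41, adjusted *p* = 0.000135 by edgeR) and -0.53 (SE 0.33, adjusted *p* = 0.188). Without si025 replicate 2, which held 11 counts against 1 and 6 in the other si025 libraries, the first was -2.78 and the difference between the siRNAs moved from -1.56 to -2.26. HIST1H2AG was 2.26 ± 0.212, 0.555 ± 0.0169 and 1.18 ± 0.0965 CPM in control, si025 and si033, with no overlap between groups. It fell by 2.01 and 0.97 on the log2 scale (adjusted *p* = 1.92e-07 and 0.000503). HIST1H2AE, HIST1H2AK and HIST1H2AM were called lower with si025, and with si033 their values were -0.44, -0.64 and -0.20 (adjusted *p* = 0.0946, 0.101 and 0.589).

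The H2B genes included HIST1H2BK, which read 129, 136 and 134 CPM in control, 40.6, 51.3 and 45.2 CPM with si025, and 93.8, 94.0 and 92.8 CPM with si033. Its changes of -1.53 (SE 0.06, adjusted *p* = 1.47e-15 by edgeR) and -0.51 (SE 0.06, adjusted *p* = 7.18e-08) resembled in size those of HIST1H1C given above. HIST2H2BE, at 12.5, 11.6 and 11.8 CPM in control, fell to 4.59, 4.66 and 4.91 CPM with si025 and to 10.1, 9.21 and 8.97 CPM with si033. The groups did not overlap, and the changes were -1.33 and -0.35 (adjusted *p* = 2.89e-10 and 0.00414).

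HIST1H2BJ behaved otherwise, with nearly as low a level for si033 as for si025. It read 7.94, 9.21 and 8.65 CPM in control, 2.34, 1.84 and 2.56 CPM with si025, and 2.88, 2.79 and 3.73 CPM with si033. The changes were -1.94 (SE 0.16, adjusted *p* = 3.25e-10 by edgeR) and -1.41 (SE 0.15, adjusted *p* = 4.24e-08). The siRNAs differed by -0.53 (adjusted *p* = 0.0145), a call lost without si025 replicate 2 (0.0866) or si033 replicate 3 (0.195). HIST1H2BO was the most reduced member with si025, at 1.84 ± 0.176 CPM in control, 0.391 ± 0.139 CPM for si025 and 0.777 ± 0.106 CPM for si033. Its changes were -2.17 and -1.33 (adjusted *p* = 6.32e-07 and 0.000121).

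For a further 3 named H2B genes, si025 gave a call and si033 did not. HIST1H2BC read 3.84, 4.78 and 3.67 CPM in control, 2.26, 1.59 and 1.33 CPM with si025, and 4.37, 4.72 and 4.52 CPM with si033. HIST1H2BG was 4.09 ± 0.328, 1.15 ± 0.529 and 3.46 ± 0.730 CPM, and HIST1H2BD 7.83 ± 0.322, 5.37 ± 0.603 and 8.64 ± 0.653 CPM, in control, si025 and si033. With si025 these 3 genes changed by -1.29, -1.71 and -0.55 (adjusted *p* = 4.68e-06, 1.17e-06 and 0.000477 by edgeR). With si033 the estimates were 0.16, -0.20 and 0.15 (adjusted *p* = 0.423, 0.420 and 0.278). The difference between the siRNAs was itself called for all 3, at -1.45, -1.52 and -0.70.

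Of the 14 H3 genes 3 were tested, and all 3 were called lower with both siRNAs. Among all tested genes, 28.8% were called lower with si025 and 27.8% with si033. HIST1H3H read 8.21, 9.21 and 7.46 CPM in control, 2.49, 2.18 and 1.95 CPM with si025, and 6.26, 6.11 and 6.45 CPM with si033. Every si025 library lay below every si033 library, and these below every control. The changes were -1.92 (SE 0.15, adjusted *p* = 1.43e-10 by edgeR) and -0.38 (SE 0.13, adjusted *p* = 0.0148), the latter not called without control replicate 2 (adjusted *p* = 0.0860). The difference of -1.54 between the siRNAs was among the 4 largest of any member.

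HIST1H3C, by contrast, had similar levels with both siRNAs. It read 1.57, 1.81 and 1.78 CPM in control, 0.857, 0.397 and 0.575 CPM with si025, and 0.247, 0.696 and 0.725 CPM with si033. The changes were -1.57 (adjusted *p* = 8.59e-05 by edgeR) and -1.51 (adjusted *p* = 0.000173), and the siRNAs differed by -0.06 (SE 0.37), with an interval of 2 SE from -0.80 to 0.67 that leaves room for differences of either sign. HIST1H3D was 1.65 ± 0.202 CPM in control, 0.620 ± 0.109 CPM for si025 and 0.974 ± 0.218 CPM for si033. Its si033 change of -0.67 (adjusted *p* = 0.0252) was not called without si033 replicate 1 (0.102), si033 replicate 2 (0.0545) or control replicate 2 (0.10004). The remaining 11 H3 genes, 3 of them at 0, had at most 71 counts each over all 9 libraries.

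H4 had the lowest summed level, and 11 of its 15 genes were not tested. HIST1H4H read 4.02, 3.33 and 3.09 CPM in control, 1.09, 1.69 and 1.90 CPM with si025, and 2.39, 2.55 and 2.35 CPM with si033. The groups did not overlap, and the changes were -1.07 (SE 0.20, adjusted *p* = 6.96e-05 by edgeR) and -0.50 (SE 0.19, adjusted *p* = 0.0298). The second call was lost when si033 replicate 1 (0.0629) or 3 (0.110) was left out, and likewise control replicate 1 (0.123) or 2 (0.0597).

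HIST4H4, which lies outside the large clusters, read 2.44, 2.03 and 1.78 CPM in control, 0.389, 0.744 and 0.884 CPM with si025, and 0.659, 0.619 and 1.14 CPM with si033. Both siRNA groups lay below control and overlapped each other. The changes were -1.49 (adjusted *p* = 8.18e-05 by edgeR) and -1.17 (adjusted *p* = 0.000861), and the difference of -0.32 between the siRNAs was not called (adjusted *p* = 0.420, interval of 2 SE from -0.97 to 0.34). HIST1H4C, at 0.914 ± 0.212 CPM in control, 0.621 ± 0.288 CPM for si025 and 0.767 ± 0.143 CPM for si033, was called with neither siRNA (adjusted *p* = 0.130 and 0.300). Without si025 replicate 2, which held its highest si025 level of 0.943 CPM, the si025 estimate moved from -0.58 to -1.005 (adjusted *p* = 0.0283).

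**Figure D4:**
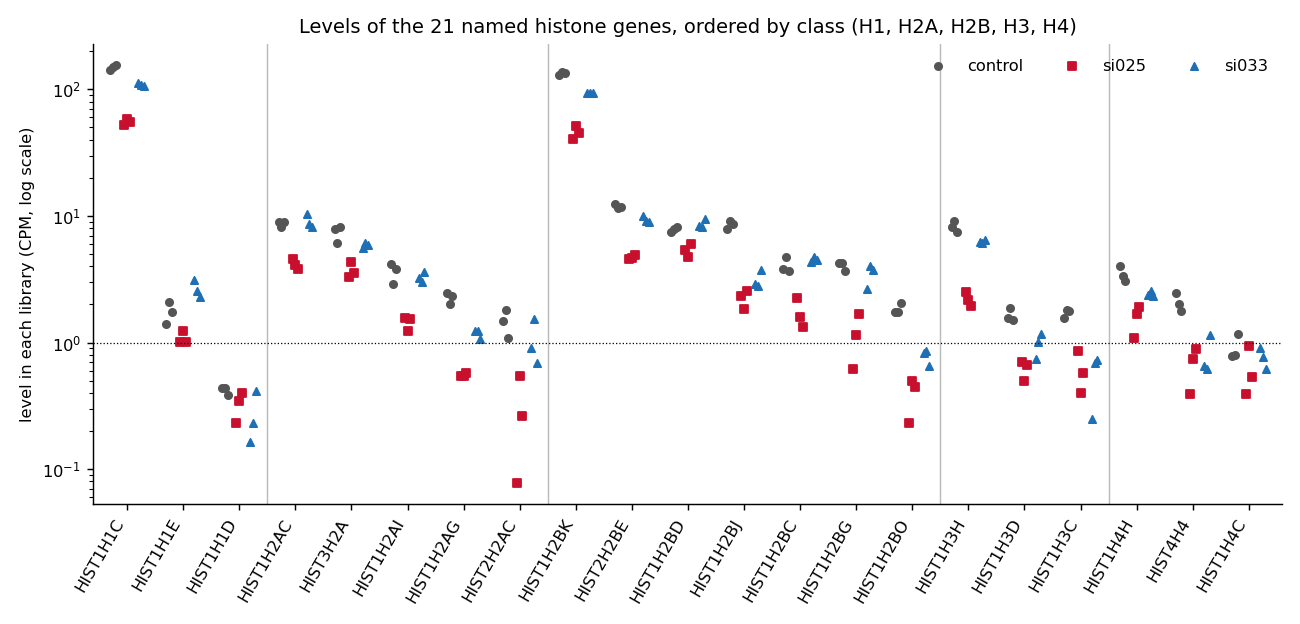
Level in each library (CPM, log y axis) of the 21 named histone genes, ordered by class and level, for control (circles), si025 (squares) and si033 (triangles), with a dotted line at 1 CPM. HIST1H1C and HIST1H2BK stand above 40 CPM in all libraries, whereas the other 19 genes remain at or under 12.5 CPM.

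H2A and H2B genes lie largely in pairs that are transcribed away from each other. Among members next to each other by model position, 11 such pairs had 240 to 347 bases between the starts. HIST1H2BK and HIST1H2AH also face away from each other but are not among the 11, because HIST1H4I lies within the span of the HIST1H2BK model. They stood at 133.3 and 0.237 CPM in control, and HIST1H2AH was not tested. Both genes were tested in 7 of the 11 pairs. In control, the higher gene of each of these 7 pairs exceeded the lower by 1.404 to 8.20 times in mean CPM, although the models differ in length. The ratio of 8.20 was that of HIST2H2BE and HIST2H2AC, with models of 2223 and 437 bases. Per kilobase of model these 2 genes stood at 5.38 and 3.34 CPM in control. HIST1H2BJ and HIST1H2AG, whose shared promoter is printed above, changed by -1.94 and -2.01 with si025 and by -1.41 and -0.97 with si033, and all 4 changes were called. HIST1H2BC and HIST1H2AC changed by -1.29 and -1.08 with si025 and by 0.16 and 0.03 with si033, the latter 2 not called.

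In the HIST1H2AM and HIST1H2BO pair, the si033 estimates were -0.20 (adjusted *p* = 0.589 by edgeR) and -1.33 (adjusted *p* = 0.000121). The interval of 2 SE for HIST1H2AM ran from -0.74 to 0.35. With si025 the 2 genes changed by -1.50 and -2.17. Whether genes within a pair differ in their change was not tested. HIST2H2BE and HIST2H2AC, on chromosome 1, changed by -1.33 and -2.08 with si025 and by -0.35 and -0.53 with si033. In HIST3H2A and HIST3H2BB the control levels were 7.42 and 0.206 CPM, and the latter gene was not tested.

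Members with longer or spliced models had changes of like size. The 4 of them that were tested (HIST1H2BK, HIST2H2BE, HIST1H2BD and HIST1H3D) had a median change of -1.37 with si025 and -0.43 with si033, compared with -1.29 and -0.45 for the other 23. All 4 were called lower with si025 and 3 of 4 with si033, where DESeq2 did not call HIST1H3D (adjusted *p* = 0.128). Among all tested genes, 28.8% were lower with si025, and 27.8% were lower and 26.9% higher with si033. Restricting the count to the 20 tested members in which at least 90% of 50-base words were unique gave 19 lower with si025, and 11 lower and 1 higher with si033. The summed level of the 5 long models was 155.0 ± 3.58 CPM in control, 56.6 ± 4.96 CPM for si025 and 112.8 ± 0.164 CPM for si033.

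The genes that serve these mRNAs were examined next, from lists written with earlier results of these data known. Of 39 tested genes for histone transcription and 3′ end processing, 26 were called lower and 6 higher with si025, and 19 lower and 6 higher with si033, with medians of -0.24 and -0.13. Of all tested genes, 28.8% were lower and 32.9% higher with si025, and 27.8% lower and 26.9% higher with si033, and these shares also apply to the lists that follow. SLBP, which binds the stem-loop from processing to translation, fell from 126 ± 1.05 CPM to 98.9 ± 3.31 CPM for si025 and 113.7 ± 4.30 CPM for si033. The changes were -0.35 and -0.16 (adjusted *p* = 8.22e-07 and 0.00692 by edgeR). With si025 the change was smaller than that of any of the 27 tested histone genes. CASP8AP2 (FLASH), a scaffold of the histone locus body, was also lower with both (-0.52 and -0.24, adjusted *p* = 4.06e-07 and 0.00328). NPAT, the coactivator of histone transcription, was -0.14 with si025 (adjusted *p* = 0.0678) and 0.17 with si033 (adjusted *p* = 0.0261).

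The components particular to the U7 particle moved upwards. LSM10 and LSM11, its specific ring proteins, rose by 0.44 and 0.31 with si025 (adjusted *p* = 5.69e-05 and 0.00810 by edgeR) and by 0.35 and 0.34 with si033 (adjusted *p* = 0.00101 and 0.00417). ZNF473, a zinc finger protein of the same processing complex, rose by 0.21 and 0.44 (adjusted *p* = 0.00179 and 3.22e-07). These 3 genes were expressed at 14.99, 8.72 and 41.1 CPM in control. The U7 RNA itself was not analysed here.

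For translation and decay, 11 of 23 tested genes were lower and 5 higher with si025, and 8 lower and 3 higher with si033, with medians of -0.13 and -0.06. The count of lower genes with si033 was near the 27.8% of all genes. ERI1, the exonuclease that trims the stem-loop, fell from 34.1 ± 2.37 CPM to 27.8 ± 2.68 and 20.3 ± 1.96 CPM (-0.31 and -0.76, adjusted *p* = 0.00106 and 3.16e-08 by edgeR), and was lower with si033 than with si025. UPF1, a helicase needed for histone mRNA decay, was lower with both (-0.17 and -0.33). MIF4GD (SLIP1), which links SLBP to translation, was higher with both (0.37 and 0.20, adjusted *p* = 0.000293 and 0.0359).

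Histone chaperones and importers were mostly lower, with 23 of 31 tested genes called lower and 1 higher with si025, and 16 lower and 2 higher with si033 (medians -0.35 and -0.14). ASF1B, a replication-coupled H3-H4 chaperone, fell from 66.3 ± 1.77 CPM to 32.7 ± 2.96 CPM for si025 and 49.4 ± 2.40 CPM for si033. That is a log2 fold change of -1.02 (adjusted *p* = 2.46e-12 by edgeR) and -0.43 (adjusted *p* = 2.69e-06). The chromatin assembly factor subunits CHAF1A (-0.82 and -0.29) and CHAF1B (-0.67 and -0.57), and the H3-H4 carrier NASP (-0.68 and -0.36), were lower with both siRNAs. HAT1, which acetylates new H4, was lower with si025 (-0.27, adjusted *p* = 3.39e-05), and with si033 its change was -0.05 (adjusted *p* = 0.401).

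The replication-independent variants belong to the same protein families, and most are made from polyadenylated mRNA. Of 12 tested, 7 were lower and 1 higher with si025, and 8 lower and 1 higher with si033 (28.8% and 27.8% of all genes were lower), with medians of -0.28 and -0.17. H2AFX, the DNA damage-associated H2A whose mRNA can take either ending, fell from 247.6 ± 11.2 CPM to 132.0 ± 12.9 CPM for si025 and 217.7 ± 8.31 CPM for si033 (-0.90 and -0.19, adjusted *p* = 3.59e-12 and 0.00683 by edgeR). H2AFZ (-0.51 and -0.27), H1FX (-0.68 and -0.34), H2AFY, the macroH2A gene (-0.46 and -0.25), and the centromeric H3 gene CENPA (-0.30 and -0.16) were lower with both. H2AFJ, at 186.6 ± 4.68 CPM in control, was reduced more by si033 than by si025 (-1.13 and -0.63, difference 0.50, adjusted *p* = 1.57e-08).

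H1F0, the H1 of resting and differentiated cells, went the other way with si025. It was 591.8 ± 8.33 CPM in control, 699.2 ± 1.67 CPM for si025 and 523.4 ± 6.57 CPM for si033, with changes of 0.24 (adjusted *p* = 6.44e-06 by edgeR) and -0.18 (adjusted *p* = 0.000335). The replacement H3 gene H3F3B was called with neither siRNA (0.02 and 0.05, adjusted *p* = 0.646 and 0.383), whereas H3F3A was lower with si025 (-0.26, adjusted *p* = 0.000422) and -0.03 with si033 (adjusted *p* = 0.733). H2AFV was 0.03 and -0.12 (adjusted *p* = 0.521 and 0.0141), H2AFY2 0.10 and 0.16 (adjusted *p* = 0.161 and 0.0272), and H3F3C, at 1.78 CPM in control, -0.15 and 0.01 (adjusted *p* = 0.587 and 0.987).

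**Figure D5:**
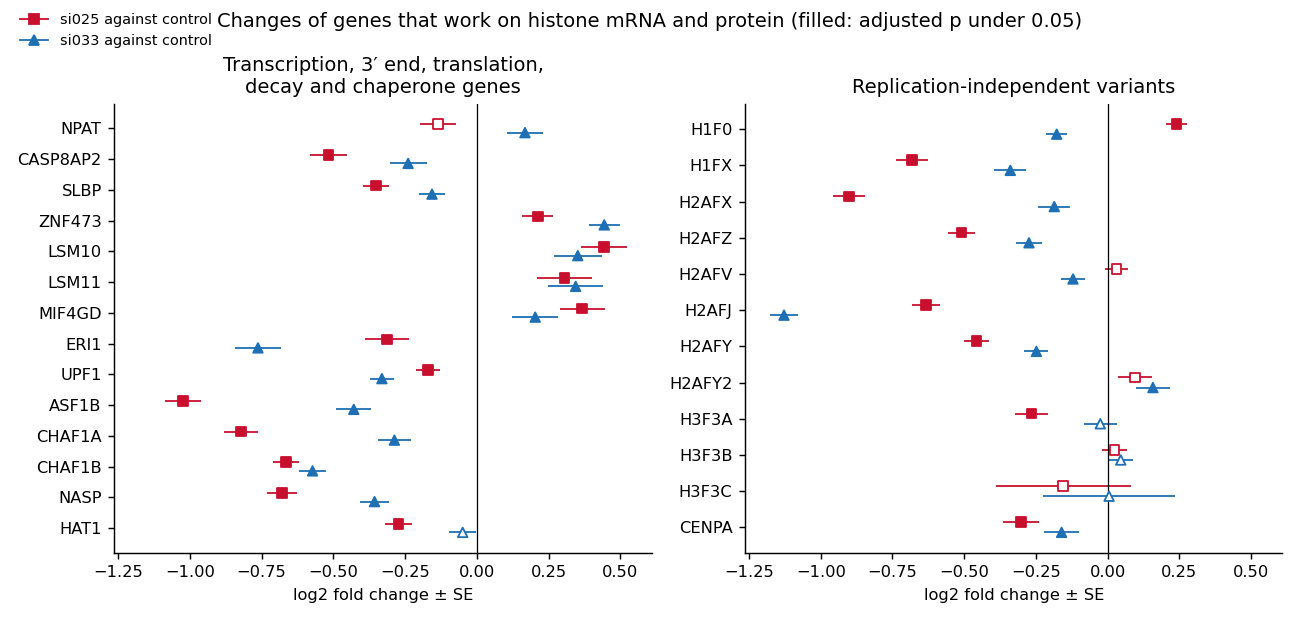
Log2 fold change against control (x axis) ± SE of 14 genes that act on histone mRNA or protein (left) and of the 12 tested replication-independent variants (right), for si025 (squares) and si033 (triangles), filled where adjusted *p* is under 0.05. ZNF473, LSM10, LSM11 and MIF4GD lie right of 0 with both siRNAs, and ASF1B has the lowest si025 value on the left at -1.02.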

How the data were processed

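RNA-seq counts of 9 VCaP libraries were used. According to the submitters' processing notes the authors aligned reads to hg38 with HISAT2 2.1.0. Per the file headers, the deposited values are raw counts of read pairs per gene symbol, made with featureCounts 1.5.2 over exons of a RefSeq annotation, on the sense strand only. The methods of the study name GENCODE. Pairs with several matches or in exons of several genes were left out. The labels name a Promega extraction kit and the methods a Qiagen kit.

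Counts were fitted with edgeR 4.0.16 in R 4.3.3 (TMM normalization, default filter, 12810 genes, quasi-likelihood test, 3 groups, no covariate, Benjamini-Hochberg adjustment over all genes), after tests on simulated data. DESeq2 1.42.0 was an alternative. CPM values use TMM-scaled totals and are mean ± SD. Intervals are 2 SE. Words were counted over 194 hg38 sequences. Named members were the 3 highest of each class, the 4 largest called changes of each comparison and members called in opposite directions. Members and lists were chosen with earlier results of these data known. Replicate pairs within groups differed by more than counting noise (chi-square per degree of freedom 1.69 to 5.09). Same-numbered libraries did not deviate together, and whether they were prepared together is not known from the sources used here.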

Additional observations from a re-analysis of the deposited data

Results flagged for a closer look

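Each tested member named here was also compared directly between si025 and si033 with edgeR, since both target IGF1R-AS1. Of 20 such members, 17 differed, each with a lower level for si025, but some were named for the size of this difference, so the count is a description. Over all 27 tested members 20 were lower, and of all genes 29.7% were lower and 31.2% higher. With si025 against si033, the log2 fold changes were -1.56 for HIST2H2AC, -1.54 for HIST1H3H, -1.52 for HIST1H2BG, -1.45 for HIST1H2BC, -1.24 for HIST1H1E and -1.21 for HIST1H2AI. They were -1.11 for HIST1H2AC, -1.04 for HIST1H2AG, -1.02 for HIST1H2BK, and -0.98 for both HIST1H1C and HIST2H2BE. The smallest were -0.84 for HIST1H2BO, -0.74 for HIST1H3D, -0.70 for HIST1H2BD, -0.65 for HIST3H2A, -0.57 for HIST1H4H and -0.53 for HIST1H2BJ.

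The calls of HIST1H2BO, HIST1H3D, HIST1H4H and HIST1H2BJ did not survive the removal of some single libraries. HIST1H2BO was not called without si025 replicate 1 (adjusted p = 0.132 by edgeR), si025 replicate 3 (0.0704), si033 replicate 1 (0.0773) or si033 replicate 2 (0.0910). HIST1H3D was not called without si025 replicate 2 (0.142), si025 replicate 3 (0.0628), si033 replicate 2 (0.0586) or si033 replicate 3 (0.267). HIST1H4H was not called without si025 replicate 1 (0.0958) or si033 replicate 2 (0.0505). DESeq2 did not call HIST1H2BO (0.113), HIST1H3D (0.167) or HIST1H4H (0.0670). Without the filter on low counts, HIST1H2BO (0.0584) and HIST1H3D (0.0566) were not called by edgeR, nor was HIST1H2BO with the replicate block (0.0518). The 3 members for which no difference was called were HIST1H3C, HIST4H4 and HIST1H4C. Knockdown strength was not measured in these data, and its part in the differences was not tested.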

How the results depend on the processing

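Of 224 counts and sums recomputed, 211 stayed within their limits, as did the direction and call of 909 of 957 fold changes of named members. DESeq2 called 0 members higher with si033, and leaving out 1 library gave 0 to 1. The summed level was 377.5 CPM in control and 286.5 CPM with si033 when scaled by plain library totals, and 277.6 CPM with si033 over tested members only. Without HIST1H1C it was 237.6, 89.1 and 173.3 CPM for control, si025 and si033. Restricted to members at 1 CPM or more in all 9 libraries, a setting chosen after the data had been seen that holds only 13 members, 13, 8 and 12 were lower in si025 vs control, si033 vs control and si025 vs si033. DESeq2 called 26, 9 and 17 members lower and edgeR 25, 13 and 20. With si033, the calls of HIST1H1E, HIST3H2A, HIST1H3H, HIST1H3D and HIST1H4H were among those lost under DESeq2 (adjusted p = 0.117, 0.109, 0.0541, 0.128 and 0.107). Leaving out 1 library gave 23 to 27, 10 to 13 and 17 to 21 lower members.

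Direction reversed in 5 fits, all of differences that were not called. HIST1H3C, si025 against si033, became 0.17 without si025 replicate 2, 0.01 without si033 replicate 2 and 0.27 without si033 replicate 3 (range -0.31 to 0.27). HIST4H4 became 0.16 there without si033 replicate 3 (range -0.55 to 0.16), and HIST1H2AC with si033 became -0.046 without si033 replicate 1 (range -0.046 to 0.12). The cause was not tested.

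Same-numbered libraries did not deviate together (correlations -0.0214 to 0.0729 over 9 pairs, 0 above 0.1), and 0 of 9 libraries matched their own number best in both other groups. With a replicate block, 24, 13 and 19 members were lower in the 3 comparisons, and 7843 genes in all differed between the siRNAs. Depth limits the account to 27 tested members, since the 43 others had at most 71 counts each over 9 libraries. Without the filter on low counts, 33 members were lower with si025.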
